A study of Mus musculus with 6 samples.

Results

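Genes for BMP ligands and for proteins that restrain them were followed in J1 mouse embryonic stem cells exposed for 24 h to SB431542 at 3 µM (3 arrays) or to its solvent DMSO (3 arrays). SB431542 blocks the kinases ALK5, ALK4 and ALK7, the type I receptors for TGF-beta, activin and Nodal, and spares the type I receptors for BMPs. J1 is 1 established line, derived from the inner cell mass of strain 129S4/SvJae, and both groups grew on gelatin in serum replacement medium with LIF at 1000 U/ml, so every array is of cells held under self-renewal conditions. Transcripts were measured on Agilent 1-colour arrays, and the labels do not say whether replicates came from separate cultures. The p-values therefore cover the spread among these arrays, which may be technical in part or in whole.

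The genes were 6 ligands (Bmp2, Bmp4, Bmp7, Bmp8a, Bmp8b and Gdf6), 3 secreted antagonists (Nog, Chrd and Grem1) and Bambi. They were chosen by name, and their probes were found by matching the RefSeq accession of each non-control probe to a gene. All 10 genes were found, on 11 of the 55681 probes of the array, with a second probe for Bmp4 and a single probe for each of the others. Bambi encodes a membrane protein and not a secreted one, so it fits the description of an extracellular antagonist only loosely.

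BMPs are secreted dimers of the TGF-beta superfamily. They bind pairs of type I and type II receptors, and these phosphorylate Smad1, Smad5 and Smad9, which enter the nucleus with Smad4. Noggin, chordin and gremlin bind the ligands outside the cell and keep them from the receptors. In mouse embryonic stem cells, BMP4 is known for supporting self-renewal together with LIF, in part through the Id genes.

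Of the 10 genes, 7 were bright enough to be tested. Bmp4 rose and Bmp8b fell, while Bmp2, Bmp7, Bmp8a, Nog and Chrd did not pass the test. Gdf6, Grem1 and Bambi were not well above background on any array. The 1 gene called higher stands beside 5.16% of all 25899 features called higher, and the 1 called lower beside 7.37% called lower. The median log2 change of the 7 was -0.02, against 0.02 over all features. At 7 genes, 1 call in each direction is no result about the group as a whole.

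Where the transcripts compared here begin in these cells was not measured, so annotated starts were used. Shown are the stretches around the RefSeq starts of Bmp4 and Bmp8b, the members past the threshold. That of Bmp8a, the close relative of Bmp8b that did not pass, is shown beside them. Each runs 5′ to 3′ on the gene's strand, from 250 bases before the start to 50 after it, in RefSeq sequence of build GRCm38.p6. Bmp4 is at chr14:46390620-46390919 on the minus strand, Bmp8b at chr4:123104911-123105210 on the plus strand and Bmp8a at chr4:123343203-123343502 on the minus strand. Capitals mark the Smad box CAGAC or its reverse complement GTCTG.
Bmp4: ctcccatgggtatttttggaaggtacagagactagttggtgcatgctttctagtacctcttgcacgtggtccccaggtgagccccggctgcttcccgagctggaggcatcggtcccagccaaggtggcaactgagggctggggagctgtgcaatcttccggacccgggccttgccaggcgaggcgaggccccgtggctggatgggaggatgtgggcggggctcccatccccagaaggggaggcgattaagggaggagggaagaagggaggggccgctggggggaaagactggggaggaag
Bmp8b: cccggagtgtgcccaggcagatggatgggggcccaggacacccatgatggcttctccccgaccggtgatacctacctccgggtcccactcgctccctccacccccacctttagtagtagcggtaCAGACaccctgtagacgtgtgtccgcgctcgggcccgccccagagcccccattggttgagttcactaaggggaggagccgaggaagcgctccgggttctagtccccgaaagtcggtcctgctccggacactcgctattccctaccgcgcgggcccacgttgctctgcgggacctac
Bmp8a: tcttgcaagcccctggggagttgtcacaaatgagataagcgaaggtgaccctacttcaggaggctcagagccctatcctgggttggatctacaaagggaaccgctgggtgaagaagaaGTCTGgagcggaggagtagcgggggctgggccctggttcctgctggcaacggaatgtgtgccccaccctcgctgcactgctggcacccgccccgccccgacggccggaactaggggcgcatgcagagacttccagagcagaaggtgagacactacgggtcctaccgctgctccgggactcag

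Both strands of each stretch were searched for the Smad box CAGAC, the palindromic Smad element GTCTAGAC, the GC-rich Smad element GGCGCC, the Foxh1 motif TGTGGATT and the TATA box TATAAA. None of these motifs overlapped another in the 3 stretches. The Smad box occurred 1 time in the Bmp8b stretch and 1 time in the Bmp8a stretch, and 0 times in that of Bmp4, while 49.6% of all 32851 RefSeq stretches of this length hold it. The other motifs were not matched in any of the 3 stretches. Over all stretches, GTCTAGAC was held by 0.213%, GGCGCC by 11.9%, TGTGGATT by 0.855% and TATAAA by 13.6%. The stretch held 12 CpG dinucleotides in Bmp4, 23 in Bmp8b and 15 in Bmp8a, against a median of 7 over all stretches. Bambi was left out of the matching, and RefSeq stretches were matched for 5 of the 10 genes, which also included Chrd and Grem1.

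Scale and spread varied more among the SB431542 arrays than among the DMSO arrays. The processed signal at the 75th percentile ran from 452 to 564 in the SB431542 arrays and from 532 to 539 in the DMSO arrays, and 0 spots were saturated. The share of spots well above background was 63.9% to 65.8% in SB431542 and 65.6% to 66.2% in DMSO. SB431542 replicate 3 lay on a second slide with its own scan, and the other 5 arrays shared a slide and a scan. Over features, the median SD of log2 levels was 0.12 for SB431542 arrays and 0.07 for DMSO arrays. Lefty1, a feedback target of Nodal signalling, served as the check of the inhibitor. Its level was -5.62, -4.91 and -4.94 in SB431542 replicates 1, 2 and 3, near the floor of detection and clear of background on 2 of these arrays, against 4.29, 4.20 and 4.31 in DMSO replicates 1, 2 and 3 (limma adjusted p = 3.16e-05).

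Signals of the dim members set the limit of what could be compared. On these arrays the lowest signal called well above background was between 8.59 and 10.9. Gdf6, a ligand gene known for its part in joint and eye development, gave a processed signal between 2.23 and 2.89 in SB431542 arrays and between 2.40 and 2.46 in DMSO arrays. Grem1 gave 1.82 to 2.94 in SB431542 arrays and 1.91 to 1.99 in DMSO arrays. Bambi gave 2.03 to 2.56 in SB431542 arrays and 2.13 to 2.25 in DMSO arrays. All 3 genes therefore have only an upper bound in both groups, and no fold change is given for them. The highest SB431542 value of each was that of replicate 3, the array on the second slide.

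**Figure D1:**
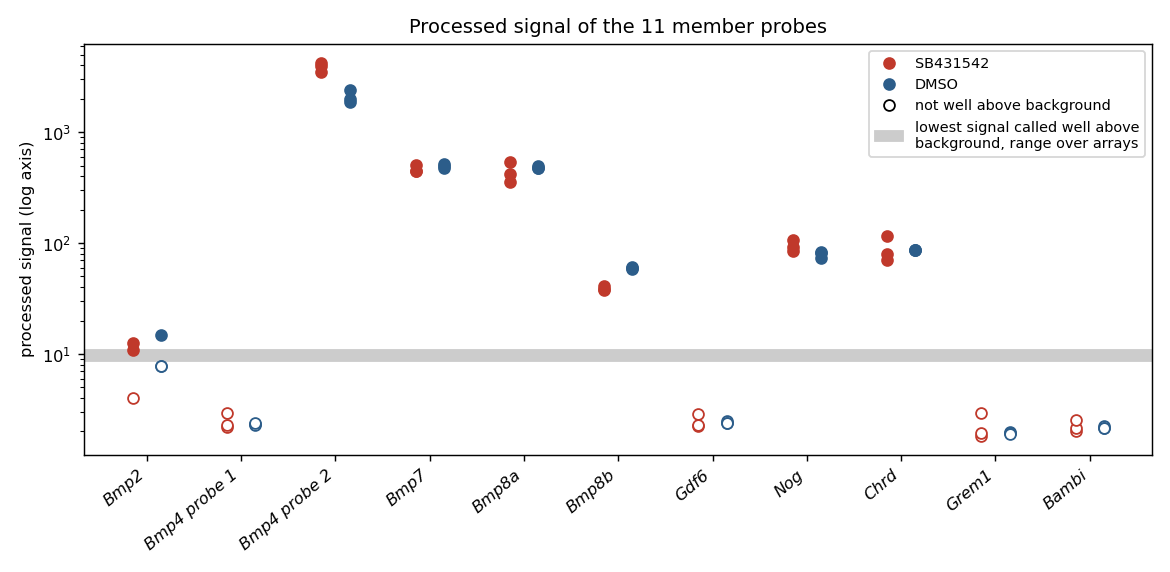
Processed signal on a log axis for each of the 11 probes, SB431542 arrays at the left (red) and DMSO arrays at the right (blue) of each position; open points were not well above background, and the grey band spans the lowest signal called well above background on each array. Gdf6, Grem1, Bambi and Bmp4 probe 1 lie below the band on all 6 arrays.

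Bmp2, a ligand gene that the visceral endoderm of the early mouse embryo expresses, sat at the edge of detection. Its processed signal was 10.8, 12.5 and 4.04 in SB431542 replicates 1, 2 and 3. In DMSO replicates 1, 2 and 3 it was 7.82, 14.9 and 7.83. It stood clear of background on 2 SB431542 arrays and 1 DMSO array, which is the fewest arrays the filter on dim probes allowed. The groups overlapped, and the log2 change of -0.17 had a 95% interval from -1.52 to 1.18 (limma adjusted p = 0.869). The interval spans both a 2.88-fold lower and a 2.27-fold higher level, so the array says little about this gene.

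Bmp4 encodes the BMP ligand best known in embryonic stem cell culture, and it was the member with the largest change. Its level is given as the log2 of the processed signal over the array's 75th percentile, so that 0 is a signal at that percentile. The level was 2.96, 2.94 and 2.91 in SB431542 replicates 1, 2 and 3. It was 2.14, 1.82 and 1.90 in DMSO replicates 1, 2 and 3. The SB431542 arrays lay within a narrow band and all above the DMSO arrays, among which replicate 1 was highest. The log2 change was 0.98 ± 0.09 (SE, limma adjusted p = 0.00253), which is 1.97-fold with a 95% interval from 1.69 to 2.31. The difference was larger than the SD of either group, which was 0.02 in SB431542 and 0.17 in DMSO. By size it stood at place 98 among the 1337 features called higher. In cells on the first slide alone, which leaves out SB431542 replicate 3, the change was 0.995 ± 0.11 (limma adjusted p = 0.0108).

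The probes of Bmp4 disagreed in signal. The result above comes from the brighter one, with a processed signal of 3479 to 4240 in SB431542 arrays and 1880 to 2380 in DMSO arrays. The other, annotated to the same transcript accession, gave 2.20 to 2.96 in SB431542 arrays and 2.31 to 2.37 in DMSO arrays and lay at background on all 6 arrays. It could neither repeat nor contradict the change of the brighter probe.

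Bmp7, a ligand gene with broad roles in kidney, eye and skeletal development, had close levels in both groups. Its level was -0.20, -0.03 and -0.15 in SB431542 replicates 1, 2 and 3, against -0.12, -0.03 and -0.18 in DMSO replicates 1, 2 and 3. The groups overlapped throughout. The log2 change was -0.02 with a 95% interval from -0.19 to 0.16 (limma adjusted p = 0.907). Among the members it was the most precisely measured.

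Bmp8a and Bmp8b are close relatives that lie near each other on mouse chromosome 4 and are known for roles in germ cell development. Of the pair, Bmp8b passed the test and Bmp8a did not. For Bmp8b the level was -3.65, -3.59 and -3.88 in SB431542 replicates 1, 2 and 3. In DMSO replicates 1, 2 and 3 it was -3.14, -3.19 and -3.15. All SB431542 arrays lay below all DMSO arrays, and replicate 3 was the lowest. The log2 change was -0.54 ± 0.09 (SE, limma adjusted p = 0.0131), which is 1.46-fold lower with a 95% interval from 1.26 to 1.68. By size it stood at place 956 among the 1909 features called lower.

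The call on Bmp8b was lost when any DMSO array was left out. Without DMSO replicate 1, 2 and 3 the log2 change was -0.53, -0.56 and -0.54 and the limma adjusted p 0.0573, 0.0547 and 0.0591. Without SB431542 replicate 1 and 2 it was -0.57 and -0.60, with an adjusted p of 0.0343 and 0.0233. On the first slide alone the change was -0.46 ± 0.05 and the adjusted p 0.0106. With another background correction (normexp, offset 50) the change was -0.24 ± 0.06, smaller by over 1.5 times, with an adjusted p of 0.0248. An offset added to every signal shrinks the log2 changes of dim probes. The processed signal of Bmp8b was 37.5 to 40.8 in SB431542 arrays and 58.2 to 61.1 in DMSO arrays. How much of the smaller change comes from the offset was not tested. The fall kept its direction in each of these settings.

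For Bmp8a the level was -0.28, -0.36 and -0.06 in SB431542 replicates 1, 2 and 3. In DMSO replicates 1, 2 and 3 it was -0.17, -0.11 and -0.17. The groups overlapped, since SB431542 replicate 3 was above all DMSO arrays and replicates 1 and 2 were below them. The log2 change was -0.09 with a 95% interval from -0.30 to 0.13 (limma adjusted p = 0.564). On the first slide alone, which leaves out SB431542 replicate 3, it was -0.17 ± 0.05 (SE, limma adjusted p = 0.115). Over all 6 arrays, the change of Bmp8b minus that of Bmp8a was -0.46 on the log2 scale. On the first slide alone the changes lay closer together, at -0.46 for Bmp8b and -0.17 for Bmp8a. The exact two-sided permutation test over all 6 arrays gave p = 0.1, the smallest that 3 arrays against 3 allow. A difference of any size between these relatives could therefore not pass a threshold of 0.05 in this test. Whether the probes of these relatives share signal was not tested.

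Nog and Chrd, which encode noggin and chordin, antagonists known from the organizer and the forming nervous system, did not pass the test. Nog had a level of -2.46, -2.08 and -2.72 in SB431542 replicates 1, 2 and 3, against -2.89, -2.69 and -2.70 in DMSO replicates 1, 2 and 3. SB431542 replicates 1 and 2 lay above the DMSO arrays and replicate 3 lay among them. The log2 change was 0.34 ± 0.17 (SE, limma adjusted p = 0.254) with a 95% interval from -0.07 to 0.75. A rise of up to 1.69-fold is within this interval. The change was 0.17 without SB431542 replicate 2 and 0.49 without replicate 3, where the limma adjusted p was 0.0916, and neither passed.

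Chrd had a level of -2.85, -2.51 and -2.28 in SB431542 replicates 1, 2 and 3, against -2.64, -2.63 and -2.62 in DMSO replicates 1, 2 and 3. The DMSO arrays were nearly equal, with an SD of 0.01, while the SB431542 arrays lay on both sides of them with an SD of 0.29. The log2 change was 0.08 with a 95% interval from -0.27 to 0.44 (limma adjusted p = 0.739). Of the 7 tested members, Bmp4 was the 1 whose SB431542 arrays all lay above the DMSO arrays, as 18.6% of all features did, and Bmp8b the 1 whose SB431542 arrays all lay below, as 17.3% of all features did.

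**Figure D2:**
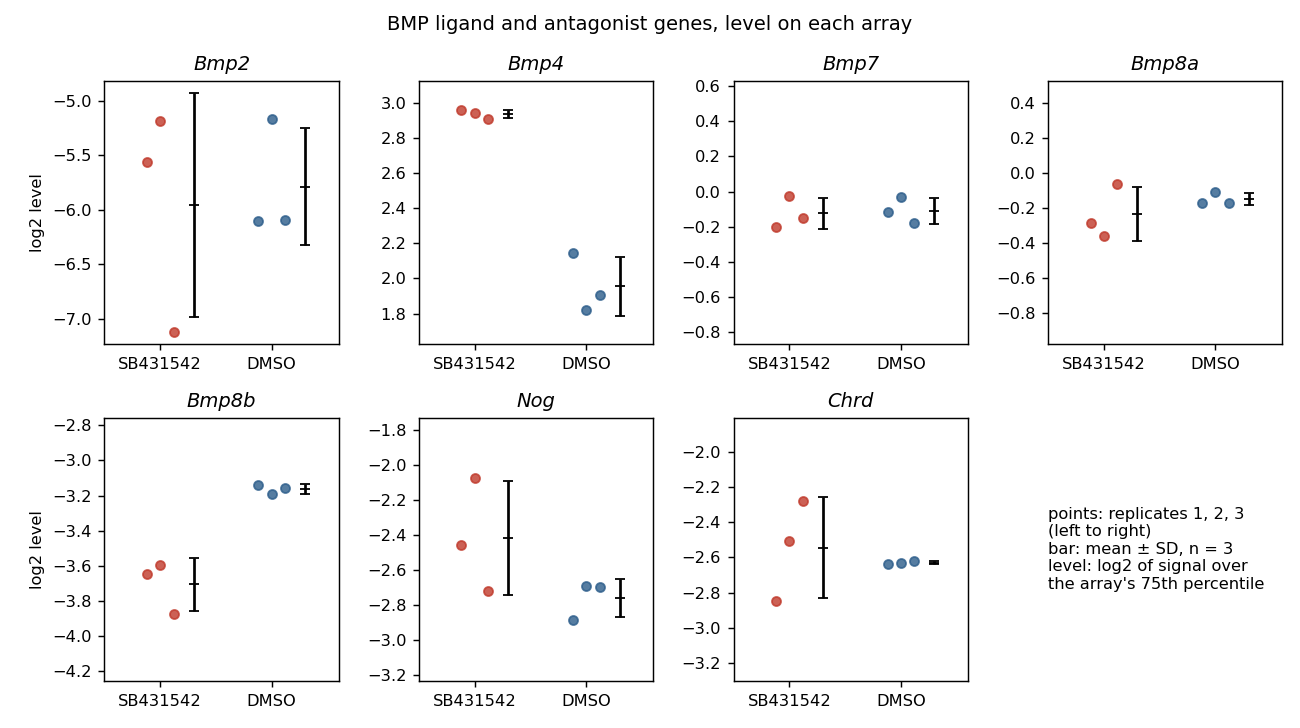
Level of each tested member on each array (log2 of the processed signal over the array's 75th percentile), SB431542 left and DMSO right, with the mean and SD of 3 arrays beside the points; each panel has its own axis. Bmp4 is higher and Bmp8b lower on all SB431542 arrays, and the groups of the other 5 genes overlap.

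**Figure D3:**
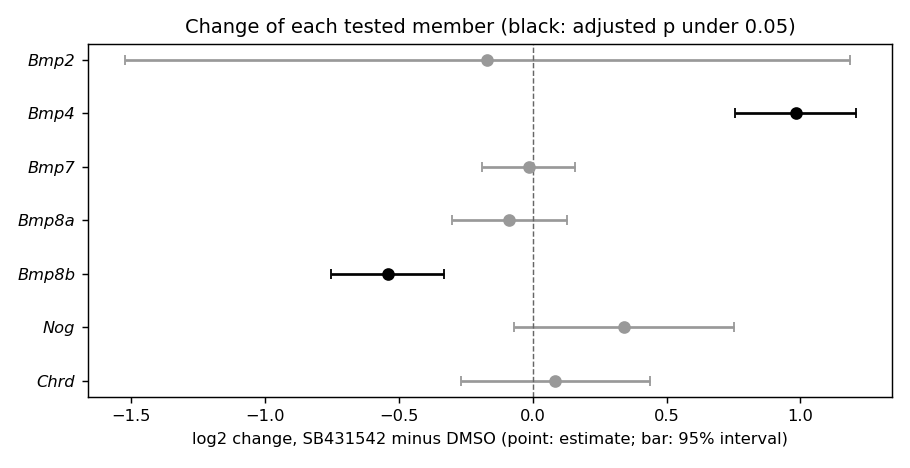
Log2 change, SB431542 minus DMSO, of the 7 tested members with 95% intervals from limma. The intervals of Bmp4 (0.76 to 1.21) and Bmp8b (-0.75 to -0.33) lie clear of 0, and that of Bmp2 is the widest.

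The genes whose pattern over the 6 arrays was most like that of Bmp4 were found by the root mean square difference of log2 levels, each centred on its DMSO mean, among 15647 other genes. They were Ankrd33b (0.06), Gm1141 (0.07), Gprc5c (0.09), Tmprss5 (0.09) and Dcaf12l1 (0.09). Their own log2 changes ran from 0.89 to 0.995, close to that of Bmp4, as the measure requires.

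Genes beside the members on the chromosome were compared by position alone. Of the 5 protein-coding genes on each side of Bmp4, 9 were tested, 1 rose and 0 fell, with log2 changes from -0.20 to 0.36. Over all features, 5.16% were called higher and 7.37% lower. The gene that rose was Ddhd1 (0.36 ± 0.06, SE, limma adjusted p = 0.0167), which is named here after its value was seen. Of these 9, 3 had an unadjusted p under 0.05. Of 6 protein-coding genes between Bmp8b and Bmp8a, 4 were tested, and their log2 changes ran from -0.19 to 0.10 with 0 called by limma. Of the 5 on each side beyond the pair, all 10 were tested and ran from -0.27 to 0.11, with 0 called by limma. Of the 14 tested genes between and beyond the pair, 0 had an unadjusted p under 0.05. The share of all features under this cut was not counted, so the counts by unadjusted p are no result about either region.

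Of 10 further BMP and GDF ligand genes on the array, 4 were tested, 2 fell and 0 rose, beside 7.37% of all features called lower and 5.16% called higher. Their median log2 change was -0.33, and Gdf5 (-0.39 ± 0.18) and Gdf7 (-0.03 ± 0.14) did not pass. Bmp6, a ligand gene known for its role in iron balance in the liver, had a level of -5.26, -4.66 and -4.92 in SB431542 replicates 1, 2 and 3, against -3.79, -3.59 and -3.84 in DMSO replicates 1, 2 and 3. All SB431542 arrays were lower, as in 17.3% of all features. The mean fall was 1.21 ± 0.16 on the log2 scale (SE, limma adjusted p = 0.00817), or 2.31-fold. In SB431542 Bmp6 was near the floor of detection, though clear of background on all 3 arrays. The lowest level called well above background there was -5.89, -5.66 and -5.69 in replicates 1, 2 and 3. The size of the Bmp6 fall is therefore uncertain. Gdf9, known as an oocyte factor, had a smaller log2 change of -0.27 ± 0.06 (SE, limma adjusted p = 0.0305).

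Among 16 further extracellular antagonists and modulators, 11 were tested, 1 rose and 4 fell, beside 5.16% of all features called higher and 7.37% called lower. Their median log2 change was 0.05. Those that fell included Fst (-0.60 ± 0.09) and Fstl3 (-0.52 ± 0.08), whose products bind activin more tightly than BMPs, and Fstl1 (-0.47 ± 0.05). Chrdl2, a chordin-like gene named after its value was seen, also fell (-0.37 ± 0.08). Its mean level was near the floor of detection in both groups, at -5.42 in SB431542 arrays and -5.06 in DMSO arrays. Tsku, which encodes a secreted modulator of several signalling pathways, rose (0.33 ± 0.05). Of the proteases that cleave chordin, Bmp1 (0.12 ± 0.13) and Tll1 (0.20 ± 0.11) were tested and neither passed.

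On the receiving side of the pathway, 1 of 12 tested receptor and co-receptor genes rose and 0 fell, beside 5.16% of all features called higher and 7.37% called lower. Their median log2 change was 0.05, and some were loosely bounded, such as the co-receptor gene Hjv, with a 95% interval from -1.51 to 0.34. The type I receptor gene Bmpr1a was at 0.09 ± 0.05 and the type II receptor gene Bmpr2 at -0.19 ± 0.05, and neither passed (limma adjusted p = 0.300 and 0.0805). Neo1, which encodes neogenin, a receptor for repulsive guidance molecules, rose by 0.26 ± 0.05. Smad1 (0.01 ± 0.09), Smad5 (-0.02 ± 0.05) and Smad4 were tested among the BMP Smads, and 0 of 3 passed limma's test, with 0 at an unadjusted p under 0.05. The share of all features under that unadjusted cut was not counted.

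Of 13 tested genes known to respond to BMP signals, 3 rose and 4 fell, beside 5.16% of all features called higher and 7.37% called lower. Their median log2 change was 0.09. Id1 had a level of 0.99, 0.92 and 1.15 in SB431542 replicates 1, 2 and 3, against 0.02, -0.04 and 0.20 in DMSO replicates 1, 2 and 3. All SB431542 arrays were higher, as they were for Bmp4 and for 18.6% of all features. Id3 rose by 0.66 ± 0.05 and Id2 was at 0.11 ± 0.08, which did not pass. The inhibitory Smad genes went the other way, with Smad6 at -0.62 ± 0.05 and Smad7, which Nodal signals also drive, at -4.60 ± 0.05. Hey1 fell as well (-1.27 ± 0.09). Id4 fell (-0.48 ± 0.11) and Gata3 rose (0.97 ± 0.11), and both are named here after their values were seen. These lists were chosen with earlier results of these data known, so their directions are not independent evidence.

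**Figure D4:**
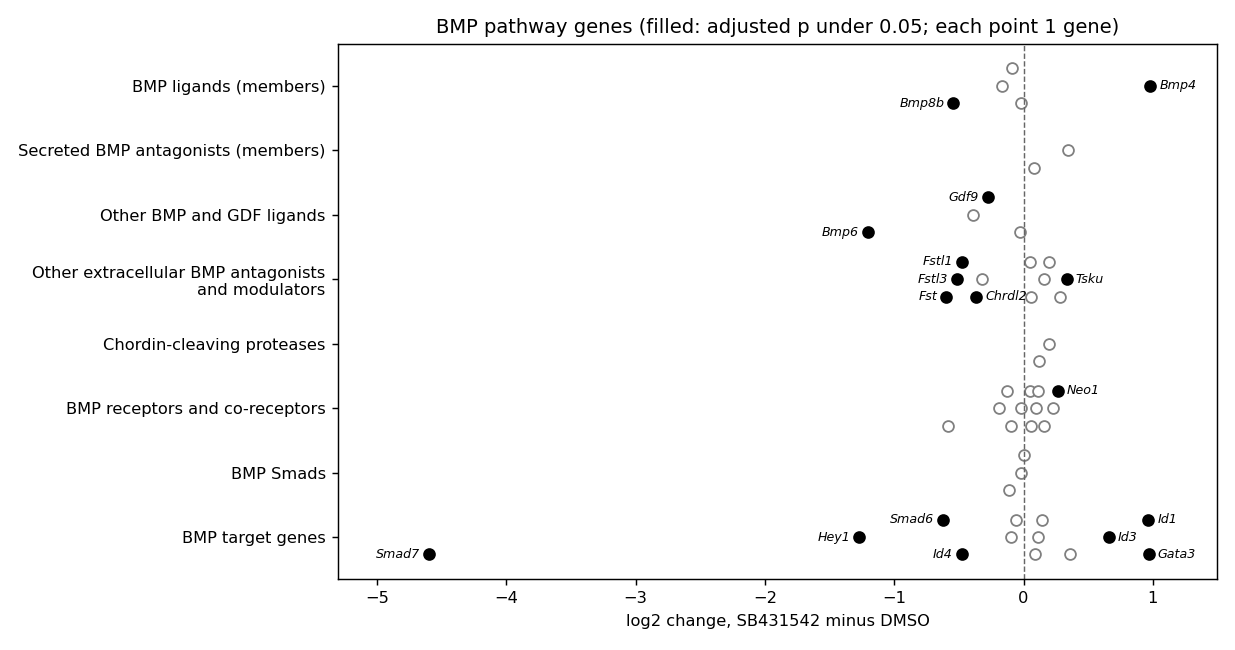
Log2 change, SB431542 minus DMSO, of every tested gene in 8 lists of the BMP pathway, 1 point per gene; filled points passed the test at an adjusted p under 0.05. Ligands and targets hold filled points on both sides of 0, and all 3 points of the BMP Smads are open.

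Markers of other cell types were read beside these results, since Bmp4 and Bmp2 are also expressed by extra-embryonic cells, and in bulk samples fewer cells of a type and less RNA per cell cannot be told apart. Summed levels are given relative to each array's 75th percentile. Calls in the marker lists stand beside 5.16% of all features called higher and 7.37% called lower. The 8 trophoblast markers summed to 30.1 to 30.2 in SB431542 arrays and 15.6 to 16.2 in DMSO arrays, and Tfap2c, the brightest, carried the gap, rising by 1.22 ± 0.05 on the log2 scale. The other 7 summed to 3.83 to 4.35 in SB431542 arrays and 4.61 to 4.89 in DMSO arrays. Of the 6 tested, Krt8 fell (-0.49 ± 0.06) and 4 did not pass, while Elf5 and Hand1 stayed at background on all 6 arrays.

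The 6 embryonic stem cell markers summed to 385 to 434 in SB431542 arrays and 512 to 536 in DMSO arrays, and all 6 were well above background on every array. Dppa5a, the brightest, fell (-0.49 ± 0.07) and carried most of this gap. The other 5, Pou5f1, Sox2, Nanog, Zfp42 and Esrrb, did not pass and summed to 129 to 146 in SB431542 arrays and 139 to 143 in DMSO arrays.

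The 9 primitive and visceral endoderm markers summed to 1.06 to 1.21 in SB431542 arrays and 1.07 to 1.13 in DMSO arrays. Without Gata6, the brightest, the sum was 0.746 to 0.813 in SB431542 arrays and 0.814 to 0.857 in DMSO arrays. Of 8 tested, 1 rose and 0 fell. This and the counts below stand beside 5.16% of all features called higher and 7.37% called lower. The 5 mesoderm markers summed to 11.5 to 14.6 in SB431542 arrays and 10.4 to 11.5 in DMSO arrays, nearly all of it from Kdr. Without Kdr the sum was 0.252 to 0.342 in SB431542 arrays and 0.254 to 0.296 in DMSO arrays. By limma, 0 of the 3 tested mesoderm markers passed, with 2 at an unadjusted p under 0.05, and Mixl1 stayed at background on all 6 arrays. The share of all features under that unadjusted cut was not counted. The 5 neuroectoderm markers summed to 3.27 to 3.57 in SB431542 arrays and 4.64 to 4.72 in DMSO arrays, and of 5 tested 0 rose and 3 fell. Without Nes, the brightest, the sum was 2.29 to 2.54 in SB431542 arrays and 3.11 to 3.17 in DMSO arrays. The 6 fibroblast markers summed to 1.75 to 1.96 in SB431542 arrays and 2.15 to 2.31 in DMSO arrays. Without Thy1, the brightest, the sum was 0.434 to 0.518 in SB431542 arrays and 0.781 to 0.836 in DMSO arrays. Of 4 tested fibroblast markers, 0 rose and 1 fell, while Postn and Lum stayed at background on all 6 arrays. The part of these cell types in the changes of Bmp4 and Bmp8b was not tested.

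**Figure D5:**
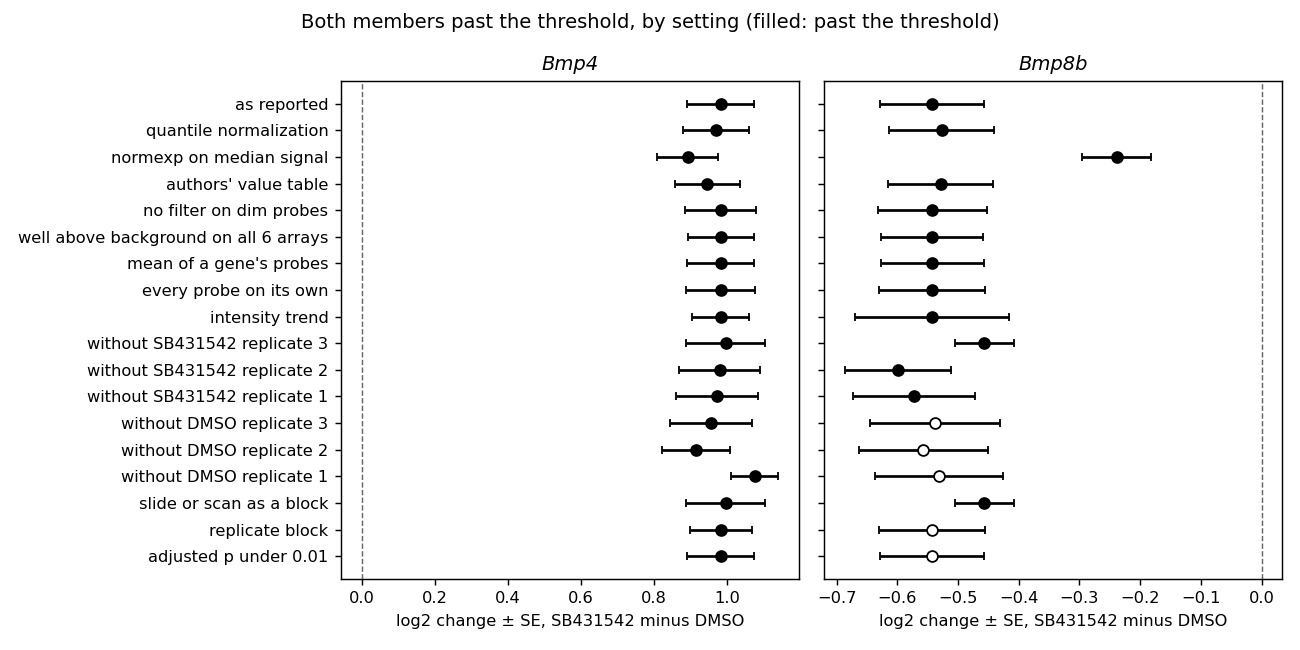
Log2 change of Bmp4 and Bmp8b (point) with its SE (bar) under the reported setting and each alternative; filled points passed the threshold of that setting. Bmp4 stays between 0.89 and 1.08 and is filled throughout, while Bmp8b is open in 5 settings and stays below 0 in all. Several settings reuse the reported log2 change, so their points repeat it.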

How the data were processed

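Each scanner file gives the intensity of every spot on a linear scale, made with Agilent Feature Extraction (version 10.7 per the submitters' processing notes) and deposited by the authors without normalization between arrays. Flags for background, outlier and saturated spots are deposited with them as a score of 0 or 1. A further deposited table gives the authors' values on a log2 scale with equal medians, and served as an alternative only. How it was normalized is not stated in the labels or headers.

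Control spots and outlier-flagged spots were left out, spots of a probe were averaged, and the log2 processed signal was set relative to the 75th percentile of that array's non-control probes. Those flagged well above background on 3 or more of the 6 arrays were kept (36184 probes), and the brightest stood for a gene. Accessions were matched to RefSeq genes of GRCm38.p6. The array grid uses mm9, so no array coordinates are given. Differences were tested with limma 3.58.1 in R 4.3.3 (lmFit and eBayes, two-sided, Benjamini-Hochberg over 25899 features, threshold 0.05). "Rose" and "fell" mean past that threshold. The steps were tested on simulated data with equal spread in both groups and no slide effect, which differs from these arrays.

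Groups and replicate numbers come from the sample titles. The members and lists were chosen with earlier results of these data known. The genes named are all members, up to 4 called genes of each further pathway list by smallest adjusted p, 9 genes fixed by name (Id1, Id2, Id3, Smad6, Lefty1, Bmpr1a, Bmpr2, Smad1 and Smad5) and the 5 genes most like Bmp4. Outside this rule, Chrdl2, Id4, Gata3, Ddhd1, Gdf5, Gdf7, Bmp1, Tll1, Smad4, Hjv and single genes of the cell type marker lists were named after their values were seen. For arrays, their number limits the precision.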

Additional observations from a re-analysis of the deposited data

How the results depend on the processing

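The alternatives were quantile normalization, normexp background correction, the authors' table, no filter or a stricter filter on dim probes, the mean of a gene's probes, every probe on its own, an intensity trend, each array left out, slide or scan as a block, the replicate block and an adjusted p under 0.01. The planned normexp on mean signals was run on the median signals, the ones used here, with an offset of 50. Bmp4 was called higher in all 17 alternatives, with log2 changes from 0.89 to 1.08 and limma adjusted p from 5.78e-05 to 0.0220. Bmp8b kept its direction in all 17 and its call in 12. The log2 changes of Bmp4 and Bmp8b stayed as reported under both filters, both treatments of a gene's probes and the intensity trend. The same held for the replicate block and the stricter threshold. In those settings only the test or its threshold could change, so they add nothing on direction or size. The members called lower numbered 0 with the replicate block and at an adjusted p under 0.01, and 0 to 1 when an array was left out. Bmp2, Bmp7, Bmp8a, Nog and Chrd were not called in any alternative that tested them, and Bmp2, whose log2 change ran from -0.56 to 0.41 when an array was left out, could not be tested with the stricter filter. That of Nog ran from 0.17 to 0.49. The log2 changes of Chrd (-0.05 to 0.24) and Bmp7 (-0.07 to 0.02) also crossed 0 over the alternatives. The count of called features was 3246, with 2092 when dim probes were kept, a setting that tests more features, 1565 with the replicate block, 1218 at an adjusted p under 0.01, and 1456 to 2926 when an array was left out. These last leave fewer samples, and for the replicate block the cause was not tested. Same-numbered arrays showed no clear pairing, since their deviations correlated at 0.00, 0.07 and -0.06. SB431542 replicate 1 correlated best with DMSO replicate 3 (0.07). With 3 arrays per group, these values cannot tell whether the replicate numbers pair the samples. With the block, the adjusted p of Bmp8b was 0.0543 and that of Bmp4 0.0220. Slide and scan give the same fit, equal to the first slide alone. Signals at background limit Gdf6, Grem1, Bambi and Bmp2.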
